A study of Mus musculus with 4 samples.

Results

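Translation factors are the proteins that load messenger RNA onto ribosomes, carry transfer RNA to them and move them along the message, and their genes carry the prefixes Eif (initiation) and Eef (elongation). The transcripts of these genes that touched IMP2 in embryonic mouse brain were taken from a list of crosslinked clusters, as every entry whose gene symbol starts with Eif or Eef. The rule found 18 distinct clusters in 7 genes (Eif4g2, Eef2, Eef1a1, Eif3a, Eif4h, Eif4ebp2 and Eif2c1), out of 1828 clusters in 761 genes. The prefix is not exact: Eif2c1 is the old symbol of Ago1, which encodes Argonaute 1, a small-RNA binding protein of gene silencing and no translation factor. Without it the set is 17 clusters in 6 genes.

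IMP2 (gene Igf2bp2) belongs to the IGF2BP family, whose members bind mainly the 3' untranslated region (3' UTR) of target messages through KH and RRM domains and are known for mRNA transport, stability and translational control. The study used HITS-CLIP, in which ultraviolet light (254 nm, 3 exposures of 300 mJ per cm2 here) fixes a protein to the RNA it touches before immunoprecipitation and sequencing. The tissue was whole brain of Swiss Webster embryos at E14, with no genetic change or treatment named, in 4 libraries: 2 have R and 2 have M in their titles, letters the labels do not explain although the protocol names both a rabbit and a mouse antibody. The protocol does not say how many embryos went into a library.

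All 4 libraries are represented by a single list with 1 height for each cluster, so none of the values below has a replicate, an error or a test, and R and M libraries could not be compared. The height is read as the largest number of overlapping tags in a cluster. The second score is the authors' fold of that height over a level that the file header does not define. The lowest height in the list is 18 and the lowest fold 2, so weaker contacts would not appear, and the number of tags in each library, and with it the depth, is unknown. No input or control immunoprecipitation was analysed here, so the part that transcript abundance plays in any height was not tested. Of 12 neuronal marker genes, 8 had a cluster (among them Dcx, Map2, Stmn2 and Sox11), beside 3.47% of all protein-coding genes. The lists of microglia (0 of 8) and of liver, gut and muscle (0 of 8) are too short to tell from that share. Gene lists were chosen with earlier results of these data known, so these marker counts only describe the list. Coordinates are on mm9 and count from 1.

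Eif4g2 held 11 of the 18 clusters. It encodes eIF4G2 (also called DAP5, NAT1 or p97), a relative of the scaffold eIF4G that binds the helicase eIF4A and the factor eIF3 but lacks the segment that holds the cap-binding protein eIF4E, and it is known for initiation that does not use the cap in the usual way. Of its clusters, 7 lay in the coding sequence (CDS) and 4 in the 3' UTR. In the whole list the CDS of at least 1 transcript held 106 of 1828 clusters (5.80%), and Eif4g2 alone supplied 6.60% of those 106. Only Map1b (listed as Mtap1b, the microtubule-associated protein 1B) matched its 7 CDS clusters, beside 18 in the 3' UTR. No other listed gene had more than 4. Some of the 7 face each other across exon edges, as described below. Counted as 1, such clusters left Eif4g2 with 5 or 4, and Mll5, Peg10 and Tubb5 also had 4. By total number of clusters, 16 genes had more than Eif4g2.

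The 4 clusters of the Eif4g2 3' UTR sat close behind the stop codon. The transcript is read from the minus strand of chromosome 7, and its 3' UTR is a single interval of 4707 bases, chr7:118211499-118216205. The first cluster, chr7:118216095-118216220, had a height of 54 and a fold of 6.69, and it ran across the stop codon: 15 of its 126 bases are coding and 111 are not. The second, chr7:118215998-118216080, began 14 bases farther on, with a height of 58 and a fold of 9.12. Both belonged to the tall end of the list: 8.70% and 6.02% of all clusters were at least as tall as them.

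The third cluster of this 3' UTR was the tallest of all Eif and Eef genes. It covered 255 bases, chr7:118215679-118215933, between 272 and 527 bases behind the coding sequence, with a height of 94 and a fold of 10.53. That height was the fourth highest in the list, shared by 3 genes, and only 0.328% of clusters reached it; by fold, Eif4g2 ranked 85 among the genes. The fourth cluster, chr7:118215187-118215275, had a height of 38 and a fold of 8.26, and ended 1019 bases behind the coding sequence. The remaining 3688 bases of the 3' UTR carried no listed cluster, so all 4 lay within its first 21.6%. Together they covered 11.4% of the 3' UTR, against a median of 4.70% over the 729 genes with a 3' UTR cluster. The number of clusters per kilobase was near the middle, 0.850 against a median of 0.861. The 3' UTR of Eif4g2 is long: 11.0% of those genes had a longer one, and the median length was 1998 bases.

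**Figure D1:**
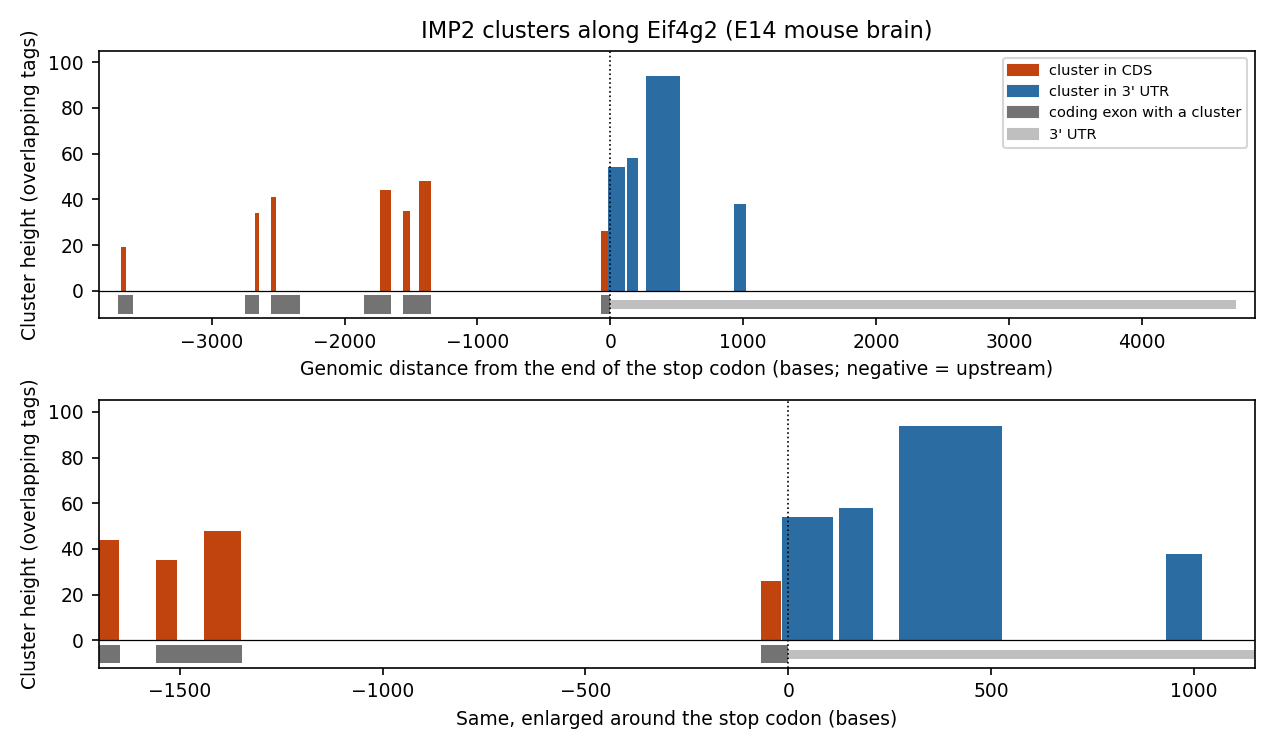
Clusters of Eif4g2 drawn to scale by genomic distance from the end of the coding sequence (x axis, in bases; negative values are upstream), with bar width the width of the cluster and bar height its height in overlapping tags; grey boxes are the coding exons that hold a cluster and the 3' UTR, and the lower panel enlarges the part around the stop codon. The 7 CDS clusters reach 19 to 48 and lie in 6 exons, and the 4 clusters of the 3' UTR reach 38 to 94 and end 1019 bases behind the coding sequence.

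The 7 coding clusters of Eif4g2 were spread over 6 exons of 66 to 216 bases. They began 3684 genomic bases upstream of the stop codon and left the first 6655 bases of the gene, 44.2% of its genomic span, without a cluster. That span includes introns, and every listed cluster lies in a CDS or UTR, so the bare share of the message itself is unknown. Within the 6 exons, 41.4% of the bases were under one of these 7 clusters, which leaves out the 15 coding bases of the cluster across the stop codon. Only exons with a cluster appear in the file, so the share of the whole CDS was not computed and exons are not numbered here.

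In the order of the message, the first coding cluster was chr7:118219852-118219889, with a height of 19 and a fold of 2.39, low in the list, where 97.9% of clusters were at least as tall. It lies in an exon of 114 bases (chr7:118219794-118219907) that the file assigns to the transcript NM_013507 alone, while the other 10 clusters are assigned to NM_001040131 as well. The next, chr7:118218852-118218882, had a height of 34 and a fold of 4.51 and stopped 1 base before the end of its exon (chr7:118218851-118218955). The following exon in the file, chr7:118218540-118218755, began with a cluster of height 41 and fold 5.18 at its very first base (chr7:118218719-118218755).

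The same arrangement returned farther along. The cluster chr7:118217855-118217939, of height 44 and fold 5.37, stopped 1 base before the end of its exon (chr7:118217854-118218058). The next exon in the file, chr7:118217552-118217763, opened with a cluster of height 35 and fold 5.14, chr7:118217712-118217764, that reached 1 base past the exon's edge. The same exon also held the tallest coding cluster of Eif4g2, chr7:118217556-118217645, with a height of 48 and a fold of 6.91, which ended 4 bases before the exon did. The last coding exon, chr7:118216206-118216271, is 66 bases long, and a cluster of height 26 and fold 3.24 covered it from its first base on (chr7:118216225-118216271).

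Cluster ends met exon edges repeatedly in this gene. Of the 7 coding clusters, 5 had an end within 1 base of an exon edge or past it. In the list, 27 of the 106 coding clusters did (25.5%), a count that includes those 5. Exon lengths were not compared with those of the other genes. In 2 places a cluster that ends an exon faces a cluster that opens the next listed exon, across 95 and 90 genomic bases. If those exons are joined directly in the message, which the file does not state, each pair would form a single stretch of 68 or 138 bases there. With ends up to 4 bases from an edge, a further pair is the tallest coding cluster and that of the last exon. They are 137 bases wide together, in exons 1280 bases apart in the genome. Whether these 2 exons are joined directly is likewise not stated, and an exon without a cluster between them would not be listed. In the whole list only Huwe1 and Kif1b had such a pair as well, 1 each, with joint widths of 33 and 34 bases. Counting facing clusters as 1 left Eif4g2 with 5 coding clusters at a tolerance of 1 base and with 4 at a tolerance of 4 bases. Facing pairs were looked at after the positions had been seen.

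Contact also ran on from the coding sequence into the 3' UTR. The cluster of the last coding exon ended 4 bases before the one that crosses the stop codon began, and the second 3' UTR cluster followed after 14 bases. Joining clusters at most 50 bases apart merged these 3 into a single stretch, chr7:118215998-118216271, and left Eif4g2 with 6 coding and 3 3' UTR clusters.

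Coding clusters of Eif4g2 were lower than those of its 3' UTR, with some overlap. The median height was 35 in the CDS (range 19 to 48, 7 clusters) and 56 in the 3' UTR (range 38 to 94, 4 clusters), a ratio of 1.6. Of the coding clusters, 3 were at least as tall as the lowest 3' UTR cluster and 4 were lower than every one of them. Fold separated the regions a little more: the medians were 5.14 and 8.69, and only the coding cluster with a fold of 6.91 passed the lowest 3' UTR fold of 6.69. Coding clusters were also narrower, 31 to 90 bases against 83 to 255. Their exons, however, are only 66 to 216 bases long, and 5 of the 7 ended at or past an exon edge (within 1 base). The 3' UTR is a single interval of 4707 bases, so the widths are not alike in what limits them. Clusters of 1 transcript share their source and are not replicates, so the difference was not tested.

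The level that the authors divided by can be read from height over fold. For Eif4g2 this implied level lay between 6.81 and 8.19 at the 7 coding clusters and between 4.60 and 8.93 at the 4 clusters of the 3' UTR. The median over the whole list was 5.96 (quartiles 4.81 and 7.31). The level at the cluster farthest from the stop codon in the 3' UTR, 4.60, was the lowest of the gene, so its fold of 8.26 ranks higher than its height of 38.

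Against the rest of the list, most clusters in both regions of Eif4g2 were tall by height. The 106 coding clusters of all genes had a median height of 26 (quartiles 22 and 33) and the 1714 clusters of 3' UTRs alone a median of 30 (quartiles 25 and 39), a ratio of 1.15. The coding cluster of height 48 shared the top place among them with one of Casd1, a sialic acid acetyltransferase gene, and those of height 44 and 41 ranked seventh and ninth. By fold the same 3 clusters ranked lower among the coding clusters, at 19, 40 and 43. The median fold of the coding clusters of Eif4g2, 5.14, was near the 4.77 of all coding clusters. In the 3' UTR it was 8.69 against 5.45. Of the 11 clusters of Eif4g2, 9 (5 coding and 4 in the 3' UTR) were taller than the list's median height of 30, which 46.9% of all clusters were.

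**Figure D2:**
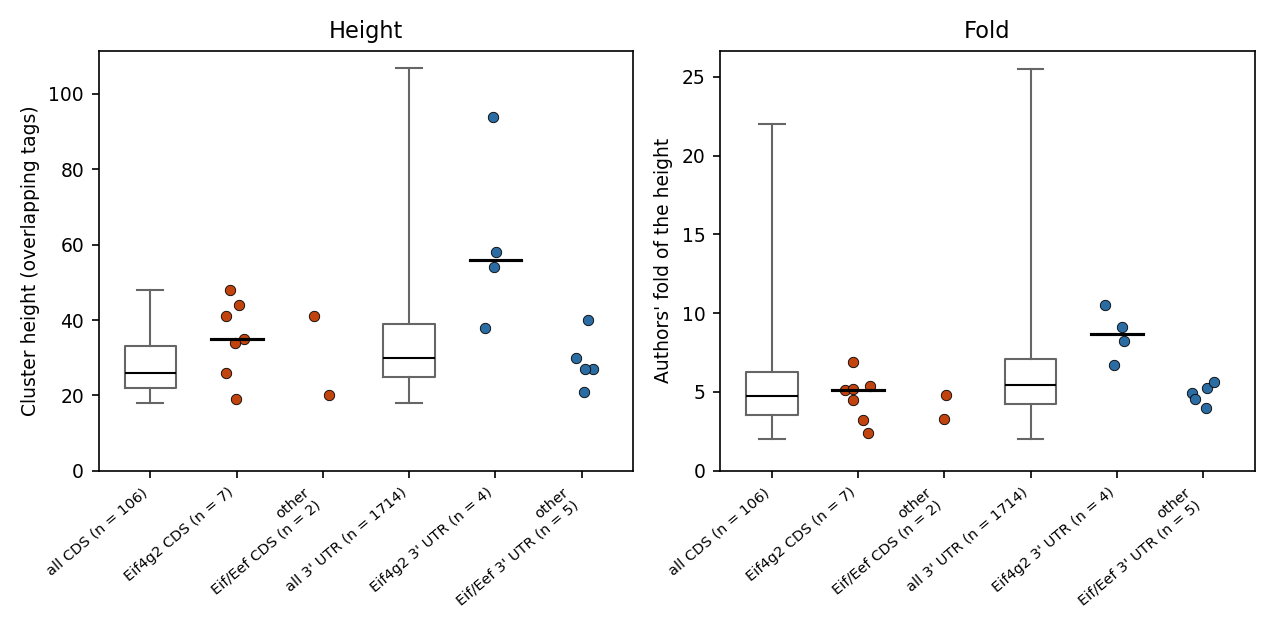
Height in overlapping tags (left) and the authors' fold of the height (right) of each cluster of the Eif and Eef genes (points; black bars are the medians of Eif4g2) beside all coding clusters and all clusters of 3' UTRs in the list (boxes with median and quartiles, whiskers to the lowest and highest value). The 4 clusters of the Eif4g2 3' UTR reach folds of 6.69 to 10.53, and the 7 clusters of the other genes stay between 3.31 and 5.64.

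By the clusters as listed, the genes most like Eif4g2 in their numbers of CDS and 3' UTR clusters were still some way off. The distances use its 7 coding clusters. They were not recomputed with facing clusters counted as 1, which left it with 5 or 4 and so nearer to genes such as Mll5. Likeness was the sum of the differences in both numbers, over the 760 entries that count the globin pair with a shared cluster once, and a cluster listed in both regions counts in both. Mll5 (now Kmt2e, a chromatin regulator) with 4 and 2, and Ttc3 (a ubiquitin ligase gene) with 2 and 4, were nearest, each at a distance of 5. Atp2a2, the calcium pump of the endoplasmic reticulum, with 1 and 4, Tcf7l2, a transcription factor of Wnt signalling, with 2 and 3, and Pcbp2, an RNA-binding protein, with 3 and 2, stood at 6. Map1b was at a distance of 14.

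**Figure D3:**
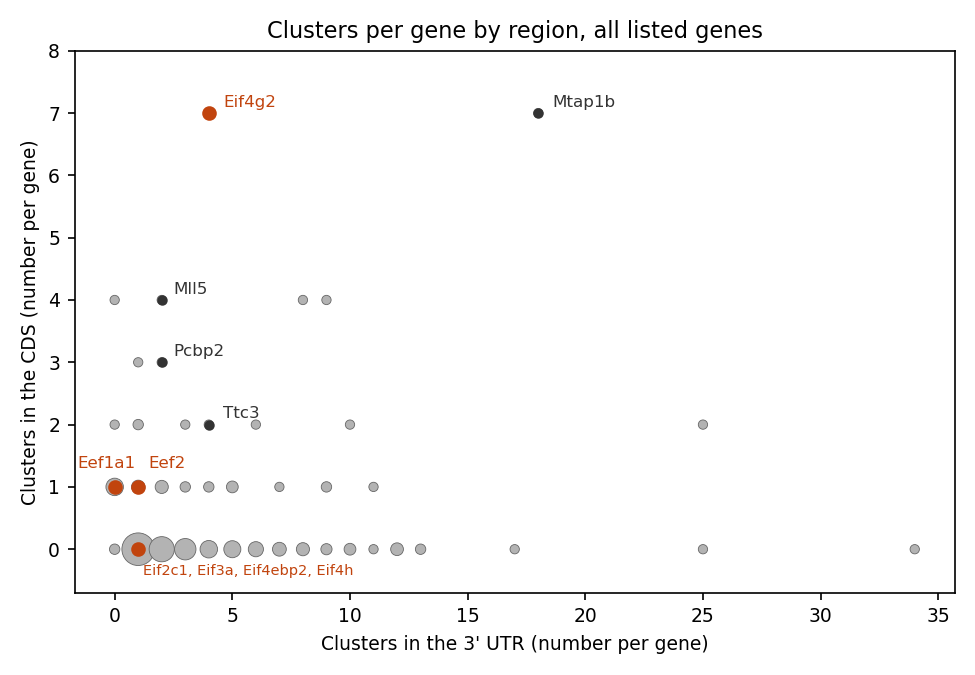
Number of clusters in the 3' UTR (x axis) and in the CDS (y axis) for each listed gene; the area of a grey circle grows with the number of genes at that place, orange marks the Eif and Eef genes and black some of the genes nearest to Eif4g2, with Map1b (as Mtap1b). Eif4g2 stands at 4 and 7, while the other Eif and Eef genes hold at most 1 cluster in either region.

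Of the initiation factors other than Eif4g2, only Eif3a and Eif4h were listed, with a single cluster each, in the 3' UTR. Eif3a encodes the largest subunit of eIF3, the complex that bridges the small ribosomal subunit and the mRNA scaffold. Its cluster on the minus strand, chr19:60837494-60837526, had a height of 27 and a fold of 5.64, near the middle of a 3' UTR of 965 bases (49.1% of the way). Eif4h encodes a cofactor that stimulates the helicase eIF4A. Its cluster on the minus strand, chr5:135095808-135095879, had the same height of 27 with a fold of 3.96, and lay at the far end of the 3' UTR, 62 bases before the end of an interval of 1633 bases.

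Eif4ebp2 encodes 4E-BP2, the repressor that holds eIF4E away from the scaffold until mTOR phosphorylates it, and the main form of this repressor in brain. Its cluster on the minus strand, chr10:60895573-60895625, was among the lowest of the list, with a height of 21 (91.4% of clusters were as tall or taller) and a fold of 4.94. It lay 72.7% of the way along a 3' UTR of 1300 bases. Eif2c1 had a cluster on the minus strand at chr4:126116430-126116471 with a height of 30, the median of the list, and a fold of 4.57. It began 275 bases behind the coding sequence in a 3' UTR of 4490 bases, nearly as long as that of Eif4g2 but with 0.935% of its bases under a cluster. In position, Eif2c1 and Eif4g2 had clusters in the early part of a long 3' UTR, and Eif4h and Eif4ebp2 in the later part of a shorter one. The shortest 3' UTRs, of Eef2 (427 bases) and Eif3a (965 bases), had theirs 39.0% and 49.1% of the way along. Position thus did not follow length over all of these genes.

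**Figure D4:**
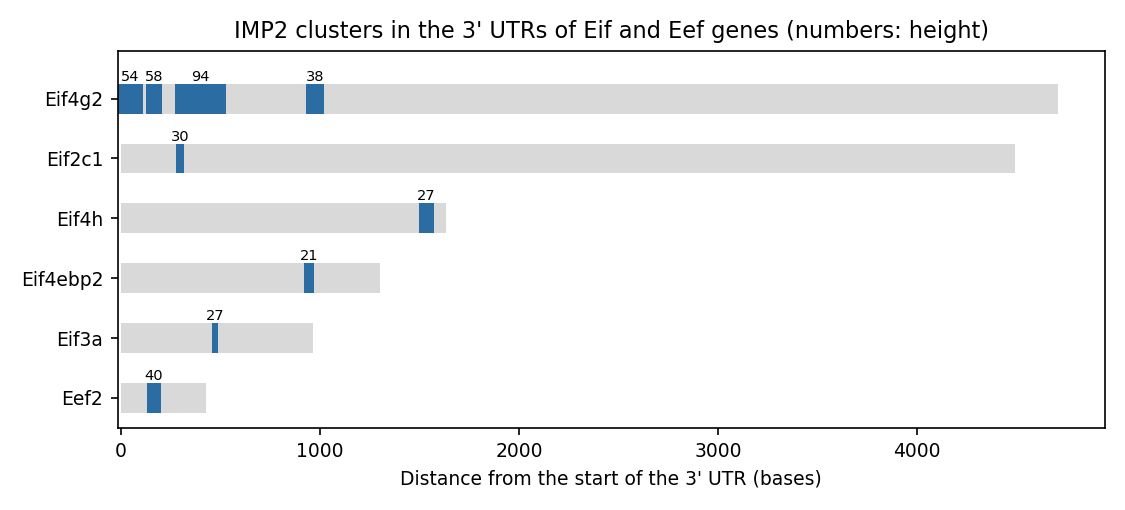
The 3' UTRs of the 6 Eif and Eef genes that have a cluster there, drawn to scale from the end of the coding sequence (x axis, in bases), with clusters in blue and the height of each cluster above it. The 4 clusters of Eif4g2 lie in the first 1019 of 4707 bases, and the first of them starts 15 bases before the 3' UTR.

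The elongation factor genes Eef2 and Eef1a1 each had a cluster in the coding sequence. With Eif4g2 this made 3 of the 7 genes, against 9.21% of all listed genes. The members were chosen with earlier results of these data known, so this count only describes these few genes. Eef2 encodes eEF2, the GTPase that moves the ribosome along by a codon. It had a coding cluster on the plus strand, chr10:80640414-80640498, with a height of 41 and a fold of 4.83, starting 4 bases inside an exon of 215 bases (chr10:80640410-80640624). Its other cluster, chr10:80644960-80645028, had a height of 40 and a fold of 5.25 and lay 132 bases into a 3' UTR of 427 bases, of which it covered 16.2%. The heights in the 2 regions of Eef2 differed by 1 tag. The coding cluster tied for ninth place by height among the 106 of the list, but stood at 52 by fold.

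Eef1a1 encodes eEF1A1, the abundant GTPase that brings aminoacyl-tRNA to the ribosome. Its only cluster was coding, on the minus strand at chr9:78327288-78327314, 27 bases wide, with a height of 20 and a fold of 3.31, close to the lowest values of the list. Tags from Eef1a1 can match its processed pseudogenes (the reference table names 2 after it) and its paralogue Eef1a2, and 1 pseudogene is named after Eef2. The sources do not state how tags with several matches were treated, so both coding values are uncertain on this point. Without Eif4g2, the Eif and Eef genes had 2 coding clusters and 5 in 3' UTRs, and only the pair of Eef2 exceeded the list's median height.

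Most Eif and Eef genes were not in the list, which also holds for protein-coding genes in general. Under current symbols the RefSeq table (GRCm38) names 72 protein-coding Eif and Eef genes, of which 6 had a cluster (8.33%, against 3.47% of all 21900 protein-coding genes) and 66 had none. The difference in share rests on these 6 genes and was not tested, nor was the part of transcript abundance in it. By role, 1 of 3 eIF4F scaffolds was listed (Eif4g2, with no cluster for Eif4g1 or Eif4g3), 1 of 6 genes of eIF4A helicases and their cofactors (Eif4h), 1 of 4 of eIF4E-binding proteins (Eif4ebp2), 1 of 14 of eIF3 subunits (Eif3a) and 2 of 10 elongation factor genes. None of the 4 cap-binding eIF4E genes, the 9 genes of eIF2 and eIF2B subunits, the 4 eIF2 kinases, the 10 other initiation factors and the 8 enzymes that modify elongation factors had a cluster. Each of these role lists is too short to tell such a count from the 3.47% of all protein-coding genes. With at least 2 clusters required, 2 genes remained, Eif4g2 and Eef2, and 1.56% of all genes passed; the same 2 passed with a cluster taller than the median height, against 1.87% of all genes.

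Genes that act beside these factors were counted by role, and no difference between roles was tested. Beside each count stands the 3.47% of all protein-coding genes that had a cluster. The lists were chosen with earlier results of these data known, so the counts are only a description. Of 18 repressors and activators of particular mRNAs counted here, a trimmed list, 5 had clusters: Caprin1, a granule protein (5 clusters, highest 54), G3bp2, a stress granule protein (4 clusters, highest 44), the repressor Pum2 (3 clusters, highest 31), Cyfip2, a partner of FMRP (27), and Msi2, a Musashi protein (22). All of those clusters were in 3' UTRs, where 1714 of the 1828 clusters of the whole list lay with no CDS. Of 10 genes of poly(A)-binding proteins and partners of the scaffold, 3 had 1 cluster each: Paip1 (31) and the helicase gene Ddx3x (28) in the 3' UTR, and the poly(A)-binding protein gene Pabpc1 (22) in the CDS. Of 12 genes of mTOR, MNK and S6 kinase control, only Pdcd4, which inhibits eIF4A, was listed (2 clusters in the 3' UTR, highest 29). Termination and recycling factors (0 of 10) and the stress and eIF2 phosphatase arm (0 of 7) had none, in lists too short to tell from the 3.47% of all protein-coding genes. Among these named genes, the highest cluster was that of Caprin1 (54), beside 94 in Eif4g2.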

How the data were processed

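Per the submitters' processing notes, which give no versions, FastQC and Bowtie were used with mm9. The sources do not state the program that called peaks, its cut-offs, the annotation release or how the 4 libraries were combined. The heights in the deposited list are pileup signal in whole numbers, and per the file headers fc_h is a ratio, the fold of a height. No value belongs to a single library, so no test was made. The 2865 lines, 1 for each cluster and transcript, were reduced to 1828 distinct clusters by chromosome, start, end and strand (Python 3.11.15, pandas 2.3.3), and starts were changed from 0-based to 1-based. The region is the deposited one; 8 clusters of the list, none of them in an Eif or Eef gene, are coding in 1 transcript and untranslated in another and were counted as CDS (for the numbers per gene, in both). Of 1099 transcripts, 1088 were matched to the GRCm38 RefSeq table by accession and 11 by name, for gene names only. Cluster sequences are not shown, as no mm9 genome was used here. The joining of clusters was tested on simulated data. All Eif and Eef genes with a cluster, all listed members of the other translation gene lists and the 5 genes nearest to Eif4g2 were named; Map1b, Casd1, Huwe1 and Kif1b were chosen after their values were seen. The members and lists were chosen with earlier results of these data known. A few genes of the other translation lists are not reported here and were left out of their counts.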

Additional observations from a re-analysis of the deposited data

How the results depend on the processing

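The deposited list sets a floor on height and fold and has no replicates, so neither depth nor the spread between libraries limits these values in a way that can be given. The 7 coding clusters of Eif4g2 stayed 7 with the region set by the midpoint and were 5 among clusters taller than the median. They were 6 after joining at 50 bases and 13 as lines of the file. Counting facing clusters of successive listed exons as 1 left 5 or 4 (tolerance 1 or 4 bases, added after the data were examined). The coding clusters of the other genes fell from 2 to 1 among taller clusters. The 18 clusters became 11 among taller clusters, 16 after joining, 28 as lines and 17 without Eif2c1. The 7 genes became 2 with at least 2 clusters, 2 with taller clusters and 6 under current symbols. The ratio of median height, 3' UTR over CDS, in Eif4g2 was 1.6 and lay between 1.47 and 1.69 over its alternatives, which include fold in place of height. Ranked by fold in place of height among the genes, Eif4g2 moved from 4 to 85, Eef2 from 182 to 536 and Eif2c1 from 410 to 617.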
